A study of Mus musculus with 8 samples.

Results

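The glycolysis and hypoxia-response genes were 40 genes taken by symbol, and their reads were compared between Th17 cells of wild type (WT) and *Trim28* knockout (KO) mice. Of the 40, 39 had reads in at least 1 library, among 13704 genes with reads in all, and each of the 39 had at least 10 reads over both libraries and was tested. *Vegfa*, the gene of an angiogenic growth factor, was listed in neither library. The cells came from naive CD4+ T cells of C57BL/6 mice that spent 3 days in culture with TGF-β (0.5 ng/ml) and IL-6 (20 ng/ml), which together drive the Th17 fate. An anti-CD3 re-stimulation preceded RNA extraction. The KO mice carried TRIM28fl/flxCD4cre, in which Cre under the *Cd4* promoter deletes the floxed *Trim28* alleles in T cells from the thymus onward, and the WT mice were labelled wild type. The labels and the methods give neither the ages of these mice nor whether cells of several mice were pooled. There was 1 library per genotype, so no difference below has a replicate check, and every test compares 2 libraries, not the genotypes. In bulk RNA, fewer cells of a type and less RNA per cell cannot be told apart.

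Glycolysis breaks glucose down to pyruvate in the cytosol, and activated T cells run it at a high rate even in oxygen, turning much of the pyruvate into lactate. HIF-1 is the transcription factor of the response to low oxygen. Its alpha subunit is made continuously and is hydroxylated and destroyed when oxygen is present, and when stable it switches on glucose transporters, glycolysis enzymes and genes of mitophagy and cell stress. In T cells HIF-1 alpha is also induced by the T-cell receptor and by IL-6 through STAT3, and it is known to favour Th17 over regulatory T-cell fate.

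The WT library held 6650066 uniquely assigned reads and the KO library 6185108, so the smallest level taken as shown, 3 reads, was 0.451 CPM (reads of a gene scaled to the library total) for WT and 0.485 CPM for KO. *Trim28* itself had 4485 reads in WT and 180 in KO cells, the direction that the labels give. T-cell markers were abundant, with 9 of 10 listed genes having reads and a summed level of 6211 CPM for WT and 5510 CPM for KO. The 8 Th17 markers summed to 1671 and 528 CPM, with *Il22* at 0 in both libraries. Markers of other cells summed to 7.97 and 4.69 CPM for CD8 T cells, 15.6 and 12.9 CPM for B cells, 4.36 and 3.07 CPM for myeloid cells and 0 and 0.647 CPM for erythroid cells. The 5 NK-cell markers summed to 0.601 and 7.76 CPM. Among them *Nkg7*, a cytotoxic granule gene, had 0 and 42 reads, *Gzma* (granzyme A) had 4 and 6, and the defining receptors *Ncr1*, *Klrb1c* and *Klra8* were at 0 in both libraries. The part of these levels in the results was not tested.

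The binding site of HIF-1 is known to hold the letters ACGTG. Upstream sequences are shown for the member that passed the 2-fold limit and the member nearest to the limit on the other side. They are also shown for *Hif1a* and for the prolyl hydroxylase genes among the members, *Egln1* and *Egln3*. The last is *Bnip3*, a mitophagy target whose window holds the motif on both strands. ACGTG was searched on both strands in the 250 bases before each annotated start (RefSeq, GRCm38.p6). CACGTG holds the motif on both strands and counts as 2 matches that overlap. Of the 37 members with an entry in the RefSeq table, 22 (59.5%) had a match in at least 1 window, against 25.6% of 8722 tested genes with an entry. The 37 include *Vegfa*, which was not tested and had a match in 1 of 2 windows. Counted by window, 26 of 53 member windows and 16.6% of all 32851 windows held a match. The members were listed as glycolysis and hypoxia-response genes, so a higher share among them is no result of these libraries. *Slc2a3*, *Bnip3l* and *Ndrg1* had no entry. In the sequences below, written 5′ to 3′ on the strand of the gene, capitals mark ACGTG or its reverse complement. For *Ankrd37* and *Hif1a* a stretch of 30 bases is shown, since their windows overlap exons of predicted transcripts. The *Mxi1* window shown lies inside the annotated gene, which starts at 53310128, before 1 of its later starts. The windows of *Hif1a* and *Ankrd37* also lie inside their annotated genes, whose upstream ends are at 73901324 and 46000414. Positions are counted back from the start, so that -1 is the base just before it.
*Ankrd37* (minus strand, the 30 bases from -30 to -1 of the window chr8:45999851-46000100): ggctgcacatgtcagtgtttgggtACGTGa
*Hif1a* (plus strand, the 30 bases from -82 to -53 of the window chr12:73907617-73907866): tggctgagagcaACGTGggctggggtgggg
*Egln1* (minus strand, chr8:124949255-124949504): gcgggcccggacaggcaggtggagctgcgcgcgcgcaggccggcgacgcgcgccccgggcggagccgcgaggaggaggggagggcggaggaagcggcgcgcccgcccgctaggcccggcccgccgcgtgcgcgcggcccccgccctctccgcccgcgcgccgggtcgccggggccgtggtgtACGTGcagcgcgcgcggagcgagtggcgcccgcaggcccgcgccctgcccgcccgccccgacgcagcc
*Egln3* (minus strand, chr12:54203875-54204124): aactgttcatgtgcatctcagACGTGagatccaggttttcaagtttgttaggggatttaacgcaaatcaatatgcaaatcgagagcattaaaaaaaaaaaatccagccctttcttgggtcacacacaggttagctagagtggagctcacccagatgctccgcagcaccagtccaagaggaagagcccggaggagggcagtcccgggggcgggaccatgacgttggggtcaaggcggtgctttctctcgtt
*Mxi1* (plus strand, chr19:53329163-53329412): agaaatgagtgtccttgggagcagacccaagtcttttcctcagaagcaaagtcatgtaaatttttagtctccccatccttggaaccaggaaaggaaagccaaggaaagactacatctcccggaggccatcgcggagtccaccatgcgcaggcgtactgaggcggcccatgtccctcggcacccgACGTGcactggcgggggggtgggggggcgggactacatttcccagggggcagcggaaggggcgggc
*Bnip3* (minus strand, chr7:138909507-138909756): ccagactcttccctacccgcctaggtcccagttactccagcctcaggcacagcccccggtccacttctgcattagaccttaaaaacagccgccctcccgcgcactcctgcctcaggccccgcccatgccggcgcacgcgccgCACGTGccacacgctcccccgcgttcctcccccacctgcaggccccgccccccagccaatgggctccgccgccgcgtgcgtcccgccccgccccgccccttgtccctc
In the windows shown, the match nearest to the start began at -6 in *Ankrd37*, -66 in *Mxi1*, -68 in *Egln1*, -70 in *Hif1a*, -107 in *Bnip3* and -229 in *Egln3*. *Ankrd37* had a second match, which began at -241, and the matches of *Bnip3* were a CACGTG. The window of *Hif1a* held 3 matches, of which 2 lie in a CACGTG that begins at -135 and 1 is the match shown. Of the other windows of *Mxi1*, 1 held a match at -25 and the one at the most upstream start held 0. A match is a description of these letters and not a site shown to be bound. Of the glycolysis enzyme genes higher in the KO library beyond counting error, *Tpi1*, *Gapdh*, *Eno1*, *Gpi1*, *Pfkl* and *Pfkp* had no match. *Pgam1*, *Aldoa* and *Pkm* had 1 match in at least 1 window. Of those that were lower, *Pgk1* had 2 matches and *Aldoc* had 0. The read counts of these genes are given below.

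Most members differed by much less than 2-fold, and more were higher than lower in the KO library. Calls required a 2-fold change with an adjusted p under 0.05, from the exact binomial test (two-sided) on each gene, with Benjamini-Hochberg adjustment over all 10881 tested genes. At these limits 1 member was called higher in the KO library and 0 lower, where 2.57% of all tested genes were called higher and 5.53% lower. At a change of at least 1.5-fold, 4 members were higher (7.02% of all tested genes) and 3 lower (11.5%). At any size of change, 20 members were higher in the KO library beyond counting error (21.4% of all tested genes) and 6 were lower (22.4%), and 13 did not pass. The test finds smaller changes in genes with more reads, and 29 of the 39 members had at least 500 reads over both libraries. Of these 29, 18 were higher and 5 lower, where among all 4677 tested genes of that depth 34.1% were higher and 29.7% lower. The median log2 fold change (log2 change, KO over WT, with 0.5 added to each count) was 0.18 over the 39 members and -0.02 over all tested genes. With edgeR's exact test and an assumed coefficient of variation between cultures of 0.1, 2 members were higher (*Ankrd37* and *Tpi1*) and 3 lower (*Aldoc*, *Hif1a* and *Mxi1*) at any size of change, where 4.47% of all tested genes were higher and 7.8% lower, shares close to those of the members. At 0.2 no member passed, where 0.597% of all tested genes were higher and 1.2% lower.

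**Figure D1:**
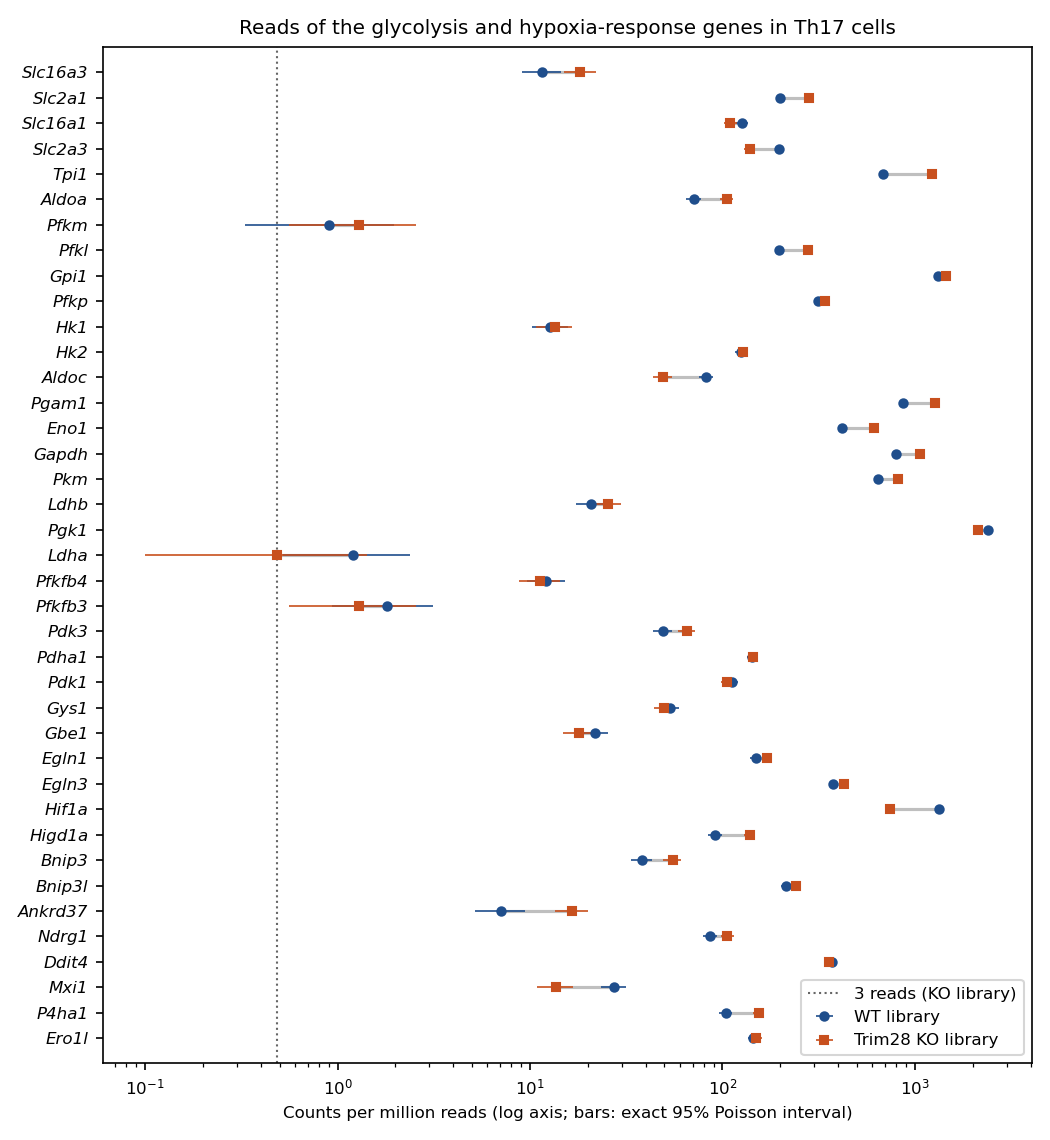
CPM of the 39 members with reads in the WT library (circles) and the *Trim28* KO library (squares), on a log axis, with exact 95% Poisson intervals of the counts and a dotted line at 3 reads in the KO library. *Pgk1* is the highest in both libraries, at 2415 and 2136 CPM, and *Ldha*, *Pfkm* and *Pfkfb3* lie below 2 CPM.

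Fold changes across the tested genes fell with transcript length (Spearman's rho -0.40 across genes, which are not independent replicates), so values with a loess curve against length taken off are given beside them. The curve stood at 0.22 on the log2 scale at the length of *Tpi1* (1469 bases) and at -0.30 at that of *Hk2* (5513 bases). After this correction 0 members were called higher at 2-fold (2.33% of 10821 genes) and 1 lower (4.32%). At any size of change, 23 members were higher (19.9%) and 6 lower (16.7%). Among the members with at least 500 reads, 21 were higher (33.0% of genes of that depth) and 5 lower (20.3%). The median over the members was then 0.24. Of the members, 5 crossed the limit of the adjusted p: *Hk2*, *Ero1l* and *Pdk1* became higher and *Ddit4* lower, and *Slc16a1* no longer differed.

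**Figure D2:**
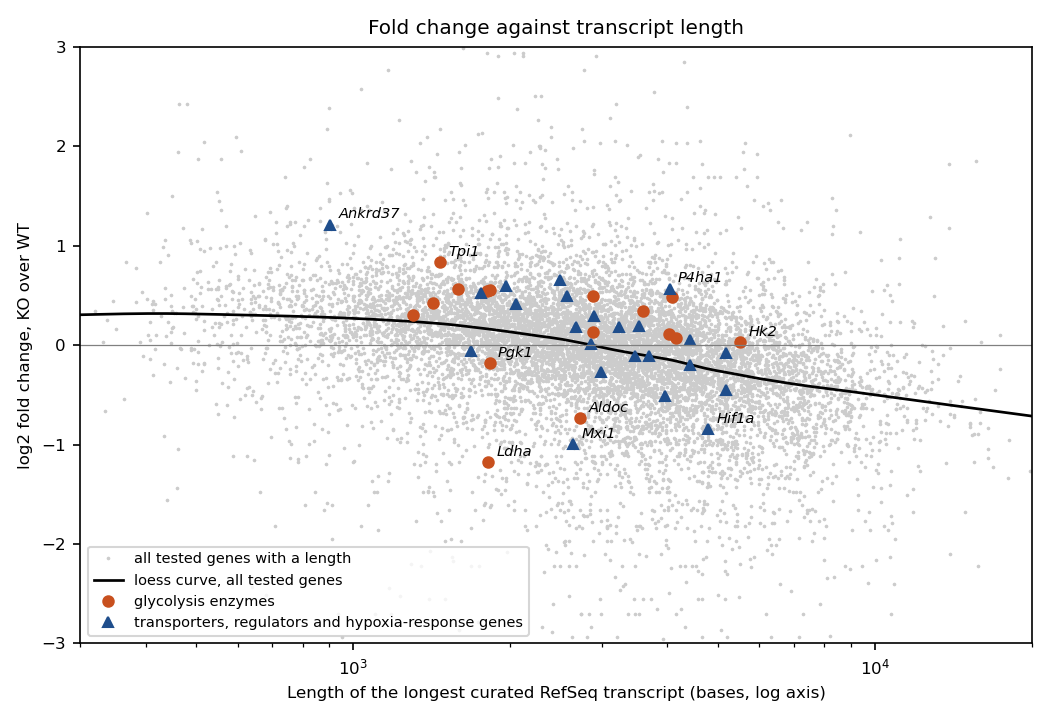
Log2 fold change (KO over WT) against the length of the longest curated RefSeq transcript for all tested genes with a length (grey), the glycolysis enzymes (circles) and the other members (triangles), with the loess curve of all tested genes. The axes leave out 110 of the grey points. *Hif1a*, *Mxi1*, *Aldoc* and *Pgk1* lie under the curve, and *Ankrd37*, *Tpi1* and *P4ha1* lie above it.

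Before the length correction the glucose and the lactate transporters moved in opposite directions within each pair, and after it only the glucose transporters did. *Slc2a1* encodes GLUT1, the main glucose transporter of activated T cells, and had 1328 reads (200 CPM) in WT and 1736 reads (281 CPM) in KO cells. Its log2 change was 0.49 (exact 95% interval 0.39 to 0.60, counting error only). *Slc2a3*, the gene of the high-affinity transporter GLUT3, had 1317 reads (198 CPM) and 858 reads (139 CPM), a log2 change of -0.51 (interval -0.64 to -0.39). After the length correction *Slc2a1* stood at 0.44 and *Slc2a3* at -0.38. With the lengths of the longest GENCODE transcripts instead they stood at 0.49 and -0.20. The number of *Slc2a1* reads per *Slc2a3* read, which does not depend on how the libraries are scaled, was 1.01 in WT and 2.02 in KO cells. The log2 of the ratio of these values was 1.005 (exact 95% interval 0.84 to 1.17) and was 0.82 after the length correction. Of the lactate transporters, *Slc16a3* (MCT4, which exports lactate) had 77 and 113 reads and a log2 change of 0.65 (interval 0.23 to 1.095). *Slc16a1* (MCT1) had 840 and 680 reads and one of -0.20 (interval -0.35 to -0.05), which was -0.004 after the length correction. MCT1 was the more abundant per length, at 28.5 RPKM (CPM per kilobase of transcript) in the WT library against 4.64 RPKM for MCT4.

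Together the 16 glycolysis enzyme genes took 0.798% of the WT reads (exact 95% interval from 0.791% to 0.804%) and 0.953% of the KO reads (from 0.945% to 0.961%), a ratio of 1.19. Without *Pgk1*, which alone had more reads than any other member in both libraries, the shares were 0.556% and 0.739%, a ratio of 1.33. The members other than these enzymes took 0.388% and 0.352%, a ratio of 0.908. Without *Hif1a*, which had the most reads of them in both libraries, they took 0.254% and 0.277%, a ratio of 1.09. *Pgk1* and *Hif1a* were both lower in the KO library, and no gene that was higher was left out in turn. Of the 16 enzymes, 9 were higher in the KO library beyond counting error, 2 were lower (*Aldoc* and *Pgk1*) and 5 did not pass, and 0 were called at 2-fold. Over all tested genes 21.4% were higher and 22.4% lower, and 34.1% and 29.7% of those with at least 500 reads. Their median log2 change was 0.32, and 0.29 after the length correction. Their median transcript length, 2278 bases, was below that of all tested genes, 2924 bases.

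In the upper part of the pathway, *Tpi1*, the gene of triosephosphate isomerase, had the largest log2 change before the length correction. After it, *Aldoc* (-0.76) and *Pfkl* (0.64) stood farther from 0 than *Tpi1*. *Tpi1* lies on chromosome 6 from 124810586 to 124814158 and had 4551 reads (684 CPM) in WT and 7568 reads (1224 CPM) in KO cells. Its log2 change was 0.84 (interval 0.79 to 0.89), and 0.62 after the length correction. The 2 aldolase genes went in opposite directions. *Aldoa*, the general form, had 472 and 651 reads (log2 change 0.57, interval 0.40 to 0.74), and *Aldoc*, better known from brain, had 545 and 304 reads (-0.74, interval -0.94 to -0.53). *Aldoa* reads per *Aldoc* read went from 0.866 in the WT library to 2.14 in the KO library, which is 1.49 and 3.67 per length. The log2 of the ratio was 1.31 (exact 95% interval 1.04 to 1.58), and 1.13 after the length correction. Of the phosphofructokinase genes, which encode the committing step, the liver form *Pfkl* had 1313 and 1714 reads and a log2 change of 0.49 (interval 0.38 to 0.59). The platelet form *Pfkp* had 2094 and 2102 reads and one of 0.11 (interval 0.02 to 0.20). After the length correction *Pfkl* stood at 0.64 and *Pfkp* at 0.26. With the lengths of the longest GENCODE transcripts instead, both stood at 0.54, so the difference between these forms depends on the length used. The muscle form *Pfkm* had only 6 and 8 reads. *Gpi1*, the gene of the isomerase before this step, had 8788 and 8983 reads and a log2 change of 0.14. Of the hexokinases, which trap glucose in the cell, *Hk2* had 831 and 788 reads and *Hk1* had 85 and 83, and neither passed the test (intervals of the log2 change from -0.11 to 0.17 and from -0.38 to 0.52). *Hk2* was at 0.33 after the length correction, past the threshold. *Hk2* reads outnumbered *Hk1* reads 9.78 to 1 in the WT library and 9.49 to 1 in the KO library.

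In the lower part, which yields ATP and ends in pyruvate and lactate, *Gapdh* (glyceraldehyde-3-phosphate dehydrogenase) had 5300 and 6599 reads and a log2 change of 0.42 (interval 0.37 to 0.47). *Pgam1*, the phosphoglycerate mutase gene, had 5763 and 7899 reads (0.56, interval 0.51 to 0.61). *Eno1*, the enolase gene, had 2798 and 3795 reads (0.54, interval 0.47 to 0.62), and *Pkm*, the pyruvate kinase gene, had 4292 and 5079 reads (0.35, interval 0.29 to 0.41). All 4 were higher in the KO library, and they stayed so after the length correction, at 0.20 for *Gapdh*, 0.40 for *Pgam1*, 0.38 for *Eno1* and 0.45 for *Pkm*. *Pgk1*, the gene of the kinase between *Gapdh* and *Pgam1* in the pathway, went the other way, with 16061 and 13213 reads and a log2 change of -0.18 (interval -0.21 to -0.14). *Tpi1* reads per *Pgk1* read were 0.283 in WT and 0.573 in KO cells, a log2 ratio of 1.02, and 0.96 after the length correction. For lactate dehydrogenase, *Ldhb* had 138 and 158 reads, a log2 change of 0.30 whose interval, from -0.04 to 0.64, includes 0. *Ldha*, the form that activated T cells are known to use, had only 8 reads in WT and 3 in KO cells, and its interval ran from -3.86 to 0.75. At these depths a change of *Ldha* was not detectable.

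Several of these mRNAs have near-identical copies elsewhere in the genome, and how reads that fit both were counted is not stated. Stretches of at least 100 bases with at least 95% identity outside the gene covered 98.8% of the *Bnip3* mRNA, 98.5% of *Ldhb*, 95.7% of *Pgk1*, 94.7% of *Pgam1*, 90.7% of *Eno1*, 88.6% of *Gapdh*, 68.6% of *Gpi1* and 59.0% of *Tpi1*. For *Gapdh*, 46 other loci each matched at least 50% of the mRNA. The share covered was 54.0% for *Ero1l*, 39.8% for *Bnip3l*, 25.6% for *Egln1* and 20.9% for *Higd1a*. For *Ldha* it was 18.7%, and the cause of its low count was not tested. The levels of these genes are therefore uncertain. Of the 8 enzyme genes with no such stretch, *Aldoa*, *Pfkl*, *Pfkp* and *Pkm* were higher in the KO library, *Aldoc* was lower and *Hk1*, *Hk2* and *Pfkm* did not pass. The median log2 change of the 26 members with reads and no such stretch was 0.05, against 0.18 over all 39, and 0.21 after the length correction.

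**Figure D3:**
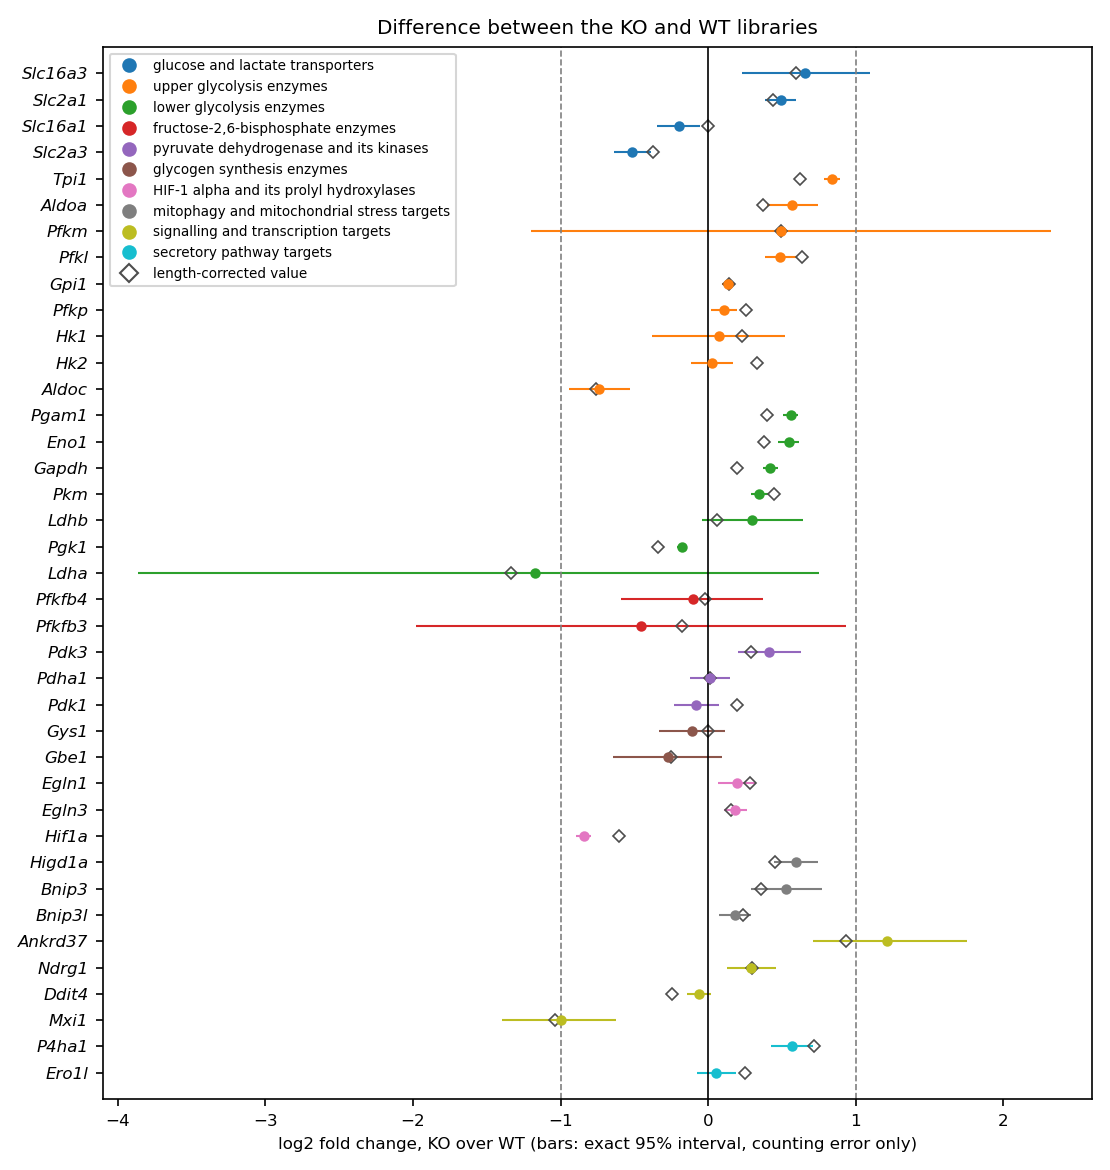
Log2 fold change (KO over WT) of the 39 members with reads, coloured by role, with exact 95% intervals that cover counting error only. Diamonds give the value after the length correction, and dashed lines mark a 2-fold change. *Ankrd37* lies beyond the upper line and *Mxi1* sits at the lower one, and *Ldha* is beyond it with an interval that spans 0.

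*Pfkfb3* and *Pfkfb4* make and break fructose-2,6-bisphosphate, the activator of phosphofructokinase, and had 12 and 8 reads and 81 and 70 reads, with intervals that include 0. The pyruvate dehydrogenase kinases inhibit pyruvate dehydrogenase, the enzyme that feeds pyruvate into oxidation in the mitochondria. *Pdk3* had 325 and 403 reads and a log2 change of 0.41 (interval 0.20 to 0.63). *Pdk1* had 744 and 655 reads and one of -0.08 (interval -0.23 to 0.07), which turned to 0.19 after the length correction. *Pdha1*, a subunit of the enzyme they act on, had 948 and 889 reads and one of 0.01 (interval -0.12 to 0.15), although 20.9% of its transcript overlaps exons of *Map3k15* on the other strand, and it is not stated whether the counting used strand. Of the glycogen synthesis genes, *Gys1* (glycogen synthase) had 355 and 306 reads and *Gbe1* (branching enzyme) 144 and 111, log2 changes of -0.11 and -0.27 with intervals that include 0.

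*Hif1a*, the gene of HIF-1 alpha, was lower in the KO library while the genes of the enzymes that mark the protein for destruction were not. *Hif1a* lies on chromosome 12 from 73901324 to 73947554 with 15 exons, and had 8907 reads (1339 CPM) in WT and 4615 reads (746 CPM) in KO cells. Its log2 change was -0.84 (interval -0.90 to -0.79), a ratio of 0.557, and -0.61 after the length correction. By RPKM it was the sixth most abundant member in the WT library, at 280 RPKM, and at 156 RPKM the tenth in the KO library. *Egln1* (PHD2, the main prolyl hydroxylase) had 991 and 1053 reads and a log2 change of 0.19 (interval 0.07 to 0.32). *Egln3* (PHD3, itself a HIF target) had 2502 and 2645 reads and one of 0.18 (interval 0.11 to 0.26). *Egln3* reads per *Hif1a* read went from 0.281 to 0.573, a log2 ratio of 1.03 (exact 95% interval 0.93 to 1.12). *Egln1* reads per *Hif1a* read went from 0.111 to 0.228, a log2 ratio of 1.04 (from 0.90 to 1.17). After the length correction these log2 ratios were 0.76 and 0.89, each below its interval. *Egln3* reads per *Egln1* read were 2.52 and 2.51.

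**Figure D4:**
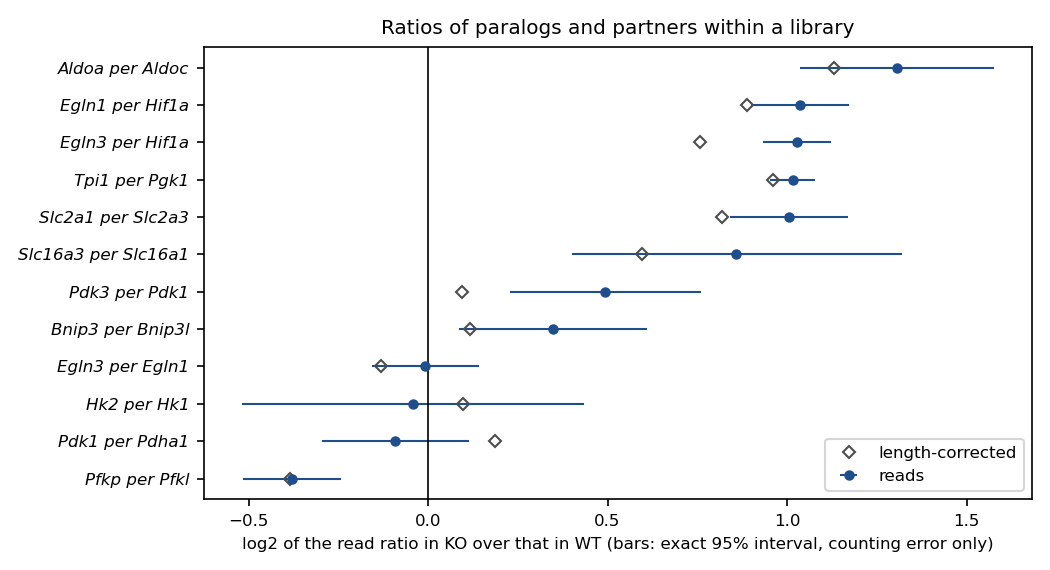
Log2 of the ratio of reads of a pair of genes in the KO library over that in the WT library, with exact 95% intervals that cover counting error only, and diamonds for the length-corrected values. Before the length correction *Aldoa* per *Aldoc*, *Egln1* and *Egln3* per *Hif1a*, *Tpi1* per *Pgk1* and *Slc2a1* per *Slc2a3* lie at 1.005 or above. *Hk2* per *Hk1* and *Egln3* per *Egln1* lie near 0.

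Genes known to be switched on by HIF-1 went in both directions. *Ankrd37*, an ankyrin repeat gene, was the only member called at 2-fold. It lies on chromosome 8 from 45996908 to 46000414 and had 47 reads (7.07 CPM) in WT and 102 reads (16.5 CPM) in KO cells. Its log2 change was 1.21 (interval 0.71 to 1.75, adjusted p = 3.73e-06 by the exact binomial test), and 0.93 after the length correction, under the limit. Exons of *Ufsp2* on the other strand overlap 5.64% of its transcript. *Mxi1*, an antagonist of MYC, had 181 and 84 reads and a log2 change of -0.998 (interval -1.39 to -0.62). At a ratio of 0.501 it stood just inside 2-fold. It was called lower after the length correction, at -1.04, but with the lengths of the longest GENCODE transcripts instead it stood at -0.78, inside 2-fold. These 2 genes are thus the members on either side of the limit.

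The genes of mitophagy and mitochondrial stress were higher in the KO library. *Bnip3* had 254 and 341 reads (log2 change 0.53, interval 0.29 to 0.77) and its relative *Bnip3l*, also called NIX, had 1420 and 1498 (0.18, interval 0.08 to 0.29). *Higd1a*, which encodes a mitochondrial protein that helps cells through low oxygen, had 610 and 857 reads (0.59, interval 0.44 to 0.75). *P4ha1*, a subunit of the prolyl hydroxylase of collagen, had 693 and 956 reads (0.57, interval 0.43 to 0.71), and 0.71 after the length correction. *Ndrg1*, a stress gene, had 575 and 655 reads (0.29, interval 0.13 to 0.46). *Ddit4*, whose product REDD1 restrains mTORC1, had 2472 and 2204 reads and a log2 change of -0.06 (interval -0.14 to 0.02), which was -0.24 after the length correction. *Ero1l*, an oxidase of protein folding in the endoplasmic reticulum, had 961 and 928 reads and one of 0.05 (interval -0.08 to 0.19).

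By RPKM, levels ran from 1323 for *Pgk1* in the WT library down to 0.313 for *Pfkm*, and *Pgk1* was first in both libraries. *Gapdh*, *Pgam1*, *Tpi1* and *Gpi1* followed in the WT library at 560, 473, 466 and 458 RPKM, of which *Pgam1*, *Tpi1* and *Gpi1* lay close together. In the KO library *Tpi1* was second, at 833 RPKM. These levels carry the uncertainty of the copies given above.

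Other genes of the same pathways were set beside the members. Of 28 further glycolysis and sugar-entry genes, 16 reached the minimum of 10 reads, and 1 of them was called lower and 1 higher (5.53% and 2.57% of all tested genes), with a median log2 change of 0.17. *Pfkfb2*, another fructose-2,6-bisphosphate enzyme, was lower with 97 and 42 reads (-1.09), and *Eno3*, the muscle enolase, was higher with only 3 and 12 reads (1.94, interval 0.21 to 4.57). Of 16 further genes of pyruvate transport and conversion, 12 were tested, and 1 was called lower and 0 higher (5.53% and 2.57% of all tested genes). At any size of change 6 were higher and 2 lower (21.4% and 22.4% of all tested genes), and after the length correction 3 and 1 (19.9% and 16.7%). The gene called lower was *Pdpr*, a regulatory subunit of pyruvate dehydrogenase phosphatase, with 115 and 38 reads (-1.48, interval -2.06 to -0.95).

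The HIF machinery held no called gene among 13 tested (2.57% of all tested genes were called higher and 5.53% lower), with a median of 0.01. At any size of change 4 were higher and 3 lower (21.4% and 22.4% of all tested genes). After the length correction 4 were higher and 2 lower (19.9% and 16.7%). *Tceb1* and *Tceb2* (elongin C and B) had 408 and 610 reads (0.68) and 1519 and 2038 reads (0.53), *Rbx1* 690 and 909 (0.50) and *Siah2* 151 and 221 (0.65), and these 4 ubiquitin ligase genes were higher beyond counting error. After the length correction *Tceb1* stood at 0.57, *Tceb2* at 0.21, *Rbx1* at 0.31 and *Siah2* at 0.59. The co-activator genes *Ep300* (2694 and 1409 reads, -0.83) and *Crebbp* (1766 and 1082 reads, -0.60) and *Hif1an*, the asparagine hydroxylase gene (485 and 345 reads, -0.39), were lower. These transcripts are long, from 6190 to 8749 bases, and after the length correction they stood at -0.37, -0.19 and -0.04. *Vhl*, the gene of the protein that recognises hydroxylated HIF-1 alpha, had 236 and 253 reads, *Cul2* 438 and 410 and *Siah1a* 242 and 197, with intervals that include 0. *Egln2* (PHD1), the gene of another prolyl hydroxylase of HIF-1 alpha, had 512 and 516 reads and an interval that includes 0. *Arnt*, the partner subunit of HIF-1 alpha, had 22 and 12 reads and *Epas1* (HIF-2 alpha) 14 and 6, with intervals that include 0.

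Of 47 further genes known as HIF targets, 38 were tested, 6 were called lower and 1 higher, against 5.53% and 2.57% of all tested genes, with a median of -0.19. Called lower were *Rora*, a Th17 transcription factor gene (258 and 45 reads, -2.40), *Car12*, a carbonic anhydrase gene (143 and 49 reads, -1.43), *Cxcr4*, a chemokine receptor gene (502 and 229 reads, -1.03), *Rab20* (22 and 6 reads, -1.69), *Ppfia4* (34 and 13 reads, -1.25) and *Stc2*. *Stc2*, which encodes a secreted glycoprotein, had 13 reads in WT and 0 in KO cells, so that only the bound nearer to 0 can be given, -1.50. *Hilpda*, the gene of a lipid droplet protein, was called higher with 15 and 42 reads (1.56, interval 0.71 to 2.55). After the length correction *Ppfia4* (-0.91) and *Pfkfb2* (-0.69) were no longer at 2-fold, and *Ier3*, an early stress-response gene with 154 and 80 reads, went from -0.84 to -1.10 and past it. *Ier3* was named after its values were seen.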

How the data were processed

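RNA-seq of WT and KO Th17 cells gave 1 library per genotype. The authors mapped reads to mm10 with SOAP2 and deposited gene counts of uniquely assigned reads, not normalized. The submitters' processing notes also name HTSeq and Bowtie, with no role given. How a unique assignment was decided for reads that fit several places, the annotation and the use of strand are not given in the sources used here. The 6 ChIP-seq and input samples were not analysed here.

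Genes not listed in 1 table were given 0 reads. Counts were divided by the library total. For 10881 genes (10 or more reads in all), a two-sided exact binomial test (SciPy 1.17.1) set the KO reads against the KO share of all reads. Of the symbols, 12833 matched RefSeq GRCm38.p6, 803 matched an older symbol and 68 matched none, and 99.4% of tested genes had a length (longest curated transcript). Loess curves (statsmodels 0.14.6, span 0.3) were taken off fold changes and put into the expected share. Copies of mRNAs were searched with BLAST+ 2.17.0. Intervals are exact (Clopper-Pearson, Poisson or conditional), at 95%, and cover only counting error, as PCR copies cannot be told from separate molecules.

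The members, the lists and the alternatives were chosen with earlier results of these data known. Every member is named, and of the further pathway genes those called at 2-fold and those of the HIF machinery with at least 10 reads. The gene pairs and the depth of 500 reads were chosen after values were seen. edgeR 4.0.16 and DESeq2 1.42.0 (R 4.3.3) served the alternatives. With 1 library per genotype, no residual degrees of freedom remain for the quasi-likelihood test of edgeR. The calculations were tested on simulated data.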

Additional observations from a re-analysis of the deposited data

How the results depend on the processing

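No paired analysis was possible because each genotype had 1 library, and for the same reason no replicate could be left out. Of the members, 1 was called higher and 0 lower. The number called higher was 0 with the length correction, also with GENCODE transcripts, and at assumed coefficients of variation of 0.2 and 0.4, and 4 at a change of at least 1.5-fold. The number called lower was 3 at 1.5-fold and 1 (*Mxi1*) with the length correction. With GENCODE transcripts *Mxi1* stood at -0.78, inside 2-fold. The further pathway genes, 8 called lower and 2 higher, gave 14 and 10 at 1.5-fold, 2 and 0 at variation 0.2 and 0 and 0 at 0.4. They gave 1 higher without a filter on reads, with at least 10 reads in each library, with either length correction, at an adjusted p under 0.001 and at variation 0.1. The median of the members (0.18) stayed between 0.18 and 0.24 under TMM, DESeq2 and upper-quartile scaling, 5 added to each count, both other filters and the length and GC corrections. It was 0.049 over the members with no copy elsewhere. That choice and the GENCODE lengths were added after seeing the data. No member past counting error changed sign under any alternative. *Pdk1*, *Hk1* and *Pdha1*, which were not past it, did so in 5 values: *Pdk1* at 0.19, 0.15 and 0.04, *Hk1* at -0.01 and *Pdha1* at -0.04. The 3 scalings moved the median of all tested genes from -0.02 to between -0.01 and 0.00. With 1 library per genotype the spread between cultures is unknown, and genes with few reads (*Ldha*, *Pfkm*, *Pfkfb3*) allow no statement on their change. Causes were not tested.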

Other observations

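The pentose phosphate pathway branches from glycolysis after hexokinase and supplies NADPH and ribose. Of 11 listed genes, 10 were tested. None was called at 2-fold by the exact test, and at any size of change 6 were higher in the KO library and 0 lower, where 21.4% and 22.4% of all tested genes were. After the length correction 4 were higher and 1 lower, where 19.9% and 16.7% of all genes were. The median log2 change was 0.33, and 0.24 after the length correction. *Pgd*, the gene of the second NADPH-yielding enzyme, had 948 and 1407 reads (log2 change 0.67), *Taldo1* (transaldolase) 1031 and 1480 (0.63), *G6pdx*, the gene of the first enzyme, 710 and 905 (0.45) and *Tkt* (transketolase) 3468 and 4329 (0.42). After the length correction *Pgd* stood at 0.57, *Taldo1* at 0.39, *G6pdx* at 0.37 and *Tkt* at 0.48. *Prps1* and *Prps2*, which use the ribose for nucleotide synthesis, had 800 and 702 reads and 620 and 543 reads. Their intervals include 0 before the length correction, and after it *Prps1* stood at -0.22 and *Prps2* at 0.03.

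Of 15 further genes of glycogen metabolism, 8 were tested and 0 were called, with a median log2 change of -0.15. *Pygb*, the gene of the brain form of glycogen phosphorylase, had the most reads, 1356 for WT and 1403 for KO (log2 change 0.15, interval 0.05 to 0.26, higher beyond counting error). The genes named for these 2 lists were chosen after their values were seen.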
